A study of Mus musculus with 6 samples.

Results

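Ribosomes are built in the nucleolus, where RNA polymerase I copies the ribosomal DNA into a long precursor RNA that is then modified, cut and packed with proteins into the small and the large subunit. The genes described here encode factors of that pathway: subunits and initiation factors of RNA polymerase I, the proteins of the small nucleolar ribonucleoprotein particles (snoRNPs) that modify the precursor, nucleolar chaperones and shuttling proteins, and processing factors of the small and the large subunit. In fibroblasts this machinery is most active during growth, and many of its genes are known targets of the transcription factor Myc. The 33 genes were taken by symbol from the deposited table, which lists 24062 genes. Each of the 33 was present and each passed the filter on low counts, as 14090 genes did in all.

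The libraries came from mouse embryonic fibroblasts of the C57BL/6 strain. In the p27 OE group, 3 libraries, a lentivirus overexpressed p27, the inhibitor of cyclin-dependent kinases that the gene Cdkn1b encodes. The EV control group has 3 libraries, and the labels do not spell out EV or describe its virus. RNA was taken at day 4, and the labels call the p27 OE cells non-senescent. The labels do not name the vector's promoter or the number of embryos, nor do they call the numbered libraries separate cultures, so p-values measure the spread between these libraries, which may be technical.

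Libraries held between 34920728 and 52098220 counts. Cdkn1b was at 49.9 to 52.2 CPM (counts scaled to a common library size) in the EV control libraries. It was at 419 to 978 CPM in the p27 OE libraries, highest in p27 OE 2. Its log2 fold change in the paired edgeR fit described below was 3.48 ± 0.42 (SE), with an adjusted p of 0.0873. By group alone edgeR gave it an adjusted p of 0.180. Cdkn1b itself thus passed the adjusted threshold used below in neither fit. The 10 fibroblast markers summed to between 54162 and 60033 CPM in the 6 libraries. Of the markers of other cell types, the 8 macrophage genes summed to 46.0 to 58.6 CPM in EV control against 43.9 to 80.9 CPM in p27 OE, the 6 endothelial genes to 11.5 to 22.0 and 10.4 to 19.6 CPM, the 6 epithelial genes to 21.4 to 32.0 and 20.4 to 45.3 CPM, the 6 neural genes to 33.6 to 55.5 and 53.1 to 69.4 CPM, and the 6 skeletal muscle genes to 0.140 to 1.33 and 0.504 to 2.37 CPM. The neural sum was largely Tubb3, at 37.7 CPM in EV control against 57.1 CPM in p27 OE, while Elavl3 was at 0 in each library, and of the muscle genes Ckm was at 0. The macrophage sum was largely Lyz2, at 38.8 CPM in EV control against 40.4 CPM in p27 OE. Of the 8 macrophage genes, 7 had a log2 fold change above 0 in the paired fit, with a median of 0.56. At an unadjusted p under 0.05, 4 of them were higher and 1 was lower in that fit, against 11.9% and 12.0% of all tested genes. At an adjusted p under 0.05 in the paired fit, 3 fibroblast markers were lower in p27 OE (Pdgfra, Lum and Twist1), and Emr1, Krt19 and Tubb3 were higher. Of all tested genes, 3.63% were lower and 3.80% higher. Cd68, Krt18, Sox10 and Sox2, from the same lists as the 3 higher genes, differed by -0.49, -0.31, -0.84 and -0.99 and did not pass that threshold. The part of such cells in the results below was not tested. Both libraries numbered 1 stood apart from the other 4, so the counts of calls are also given without them, and a gene's value is where its call changed or its log2 fold change moved by over 1.5 times. A library is called by its group and its title's number.

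The same counts were analysed in 2 ways with edgeR's quasi-likelihood test: one by group alone, and one in which the number in the titles is a block, so that p27 OE 1 is set against EV control 1 and so on (the paired fit). By group alone, none of the 33 genes passed an adjusted p of 0.05, and none of all tested genes did (0.00% in each direction). At an unadjusted p under 0.05, 7 of the 33 were higher and 1 was lower, against 3.20% and 4.02% of all tested genes. DESeq2 by group alone called 1 of the 33, Nop56, higher (log2 fold change 0.41, adjusted p 0.0121), against 0.362% of all tested genes higher and 0.220% lower, and limma-voom called 0. In the paired fit 9 of the 33, or 27.3%, were higher in p27 OE and 0 were lower, against 3.80% and 3.63% of all tested genes. At an unadjusted p under 0.05, 18 were higher and 2 lower in that fit, against 11.9% and 12.0%. Paired DESeq2 and paired limma-voom each called 7 higher and 0 lower, against 3.36% and 2.37% of all tested genes with DESeq2 and 3.24% and 2.64% with limma-voom. Leaving out number 1, 2 or 3, the paired edgeR fit called 10, 10 and 4 higher, and 1, 0 and 0 lower. Of all tested genes, these fits called 6.36%, 3.51% and 1.58% higher and 6.04%, 2.97% and 0.746% lower, so the calls over all genes also changed in number. Below, "rose" and "called" refer to an adjusted p under 0.05 in the paired edgeR fit, and log2 fold changes with their SE are from that fit (n = 3 pairs) unless stated.

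The genes that rose were the snoRNP scaffold genes Nop56 and Nop58, the polymerase I subunit gene Polr1a, the nucleolar protein genes Ddx21, Nolc1 and Gnl3, the small subunit factor genes Heatr1 and Tsr1, and the large subunit factor gene Nop2. Their increases were small, from 1.17-fold for Nolc1 to 1.32-fold for Nop56. Over the 33 genes the log2 fold change ran from -0.19 in Polr1c to 0.40 in Nop56, with a median of 0.15 against -0.001 over all tested genes. It was above 0 in 29 of the 33, against 49.6% of all tested genes. CPM are shares of a library, so the values say nothing of the total RNA per cell. In bulk RNA, a change in the number of cells of one kind and in the RNA per cell cannot be told apart.

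**Figure D1:**
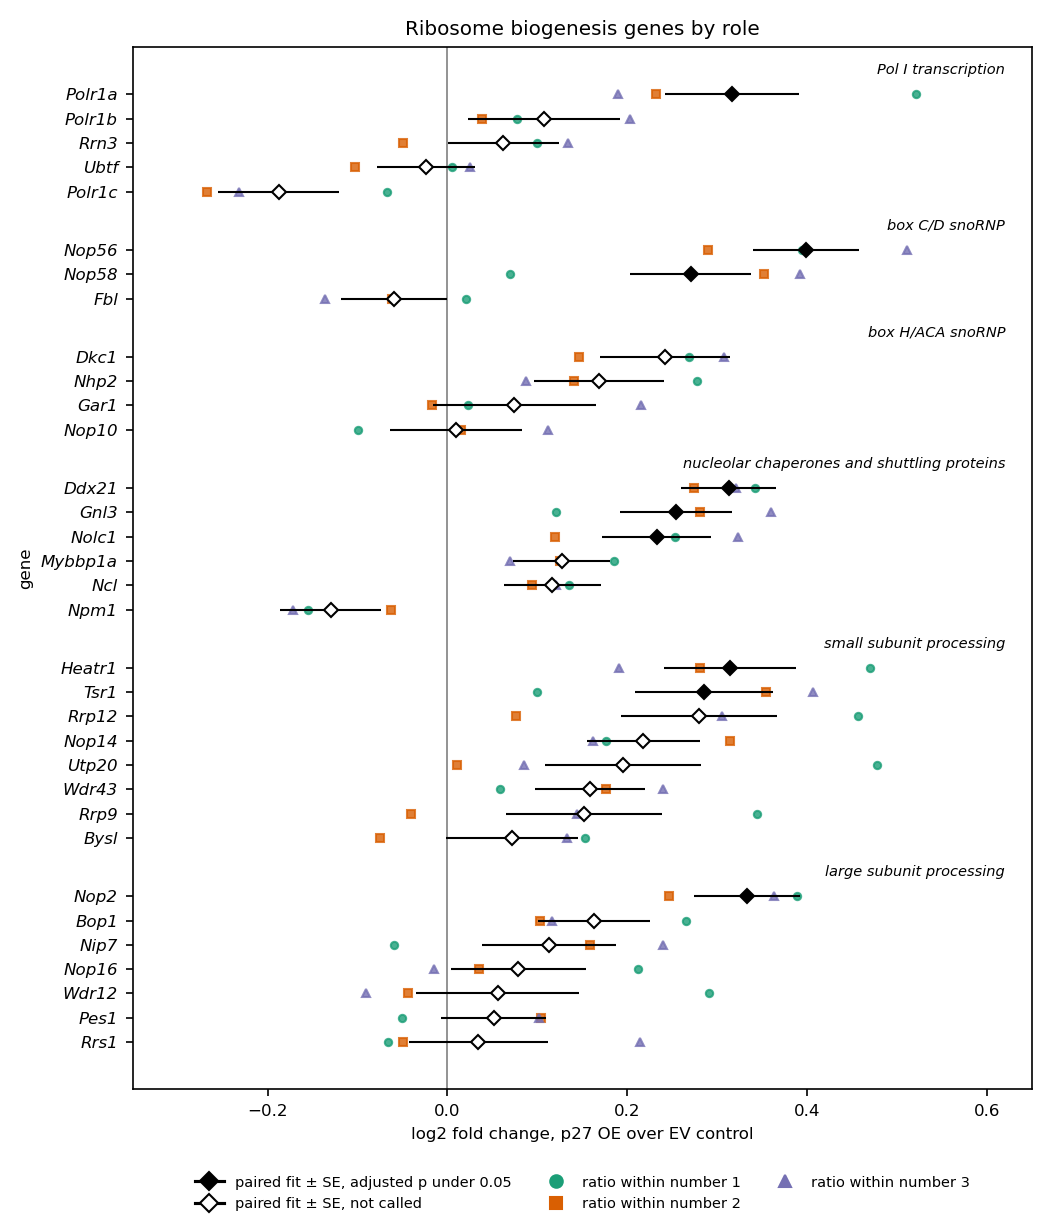
Log2 fold change of p27 OE over EV control (horizontal axis) for the 33 genes, grouped by role (vertical axis). Diamonds are the paired edgeR fit with its SE, filled where the adjusted p is under 0.05, and coloured points are the ratio within each library number. Most diamonds lie right of 0, and Polr1c, Npm1, Fbl and Ubtf lie left of it.

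The direction was shared by the 3 numbers, with a spread between them. Of the 33 genes, 27 were higher in p27 OE 1 than in EV control 1, 23 in number 2 and 28 in number 3, against 48.6%, 49.2% and 49.7% of all tested genes. The median log2 ratio of the 33 was 0.15, 0.10 and 0.16 in numbers 1, 2 and 3, where that of all tested genes was -0.007, -0.005 and -0.002. In each of the 3 numbers, 19 genes were higher and 2, Polr1c and Npm1, were lower, against 21.8% and 23.7% of all tested genes. Each p27 OE library was above each EV control library for 10 genes and below it for 1, against 6.61% and 8.28%. The 10 were Polr1a, Nop56, Nop58, Dkc1, Nolc1, Ddx21, Mybbp1a, Tsr1, Heatr1 and Bop1, and the 1 was Polr1c. Together the 33 genes made up 2726, 2812 and 2735 CPM in EV control 1, 2 and 3 and 2873, 2959 and 2904 CPM in p27 OE 1, 2 and 3, so the groups did not overlap in this sum. Npm1 and Ncl, neither of them called, were its largest parts. Their means were 765 and 476 CPM in EV control and 699 and 516 CPM in p27 OE.

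Proliferation genes were set beside them, since nucleolar output and cell division often change together. Of 12 proliferation genes, 11, 2 and 7 were higher in p27 OE in numbers 1, 2 and 3, and edgeR called none in either fit, with 0 at an unadjusted p under 0.05 in the paired one. Their sum was 685, 548 and 534 CPM in EV control 1, 2 and 3 and 804, 505 and 546 CPM in p27 OE 1, 2 and 3, which overlap. In number 2 the proliferation sum was thus lower in p27 OE, and 23 of the 33 nucleolar genes were higher there. In numbers 1 and 3 the proliferation sum was higher in p27 OE, as were 27 and 28 of the 33 genes. The part of proliferation in these results was not tested.

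Of the 3 box C/D snoRNP genes, Nop56 and Nop58 rose. These particles place methyl groups on the ribose of ribosomal RNA: NOP56 and NOP58 form the scaffold, and fibrillarin, encoded by Fbl, is the methyltransferase. Nop56 (chromosome 2, 130274430 to 130279313, forward strand, GRCm38) was at 70.8, 78.2 and 73.3 CPM in EV control 1, 2 and 3, against 93.0, 95.6 and 104 CPM in p27 OE 1, 2 and 3. Each p27 OE library was above each EV control library, and the means were 74.1 ± 3.79 and 97.7 ± 5.99 CPM (SD, n = 3 per group). The log2 fold change was 0.40 ± 0.06 (SE), with an adjusted p of 0.00191, and it passed the threshold without the libraries of any 1 number (adjusted p 0.000429, 8.38e-06 and 0.0340 without numbers 1, 2 and 3). By group alone its adjusted p in edgeR was 0.651.

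Nop58 (chromosome 1, 59684971 to 59719044, forward strand) was at 81.6, 70.8 and 65.4 CPM in EV control against 85.6, 90.3 and 85.9 CPM in p27 OE. The groups did not overlap, but the step in number 1 was small, with log2 ratios of 0.07, 0.35 and 0.39 in numbers 1, 2 and 3. Its log2 fold change was 0.27 ± 0.07 (adjusted p 0.0301, and 0.0603 and 0.275 without numbers 2 and 3). Fbl, at 63.6, 71.3 and 65.4 CPM in EV control against 64.5, 68.3 and 59.5 CPM in p27 OE, overlapped between the groups (-0.06 ± 0.06, adjusted p 0.593, and -0.10 without number 1).

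Nop56 and Nop58 also carry box C/D snoRNA genes inside their introns, so that host and guest belong to one particle. Of the 33 genes, 7 hold at least 1 annotated snoRNA gene on their own strand (21.2%), against 1.64% of 12909 tested protein-coding genes in GENCODE M21. Of the 9 genes that rose, 4 are such hosts: Nop56, Nop58, Gnl3 and Tsr1. The other 3 hosts are Dkc1, Ncl and Wdr43. The median log2 fold change was 0.25 over the 7 hosts and 0.11 over the other 26 genes, a difference that was not tested. Over 8 snoRNA host genes outside the 33, part of the wider list described below, the median was 0.02, with 4 above 0 and 0 called. The snoRNAs named in the table that lie wholly in introns of Nop56 and Nop58 are given to show the shared design, with GATG, the core of the C box, within the first 20 bases and CTGA, the D box, within the last 20 bases in capitals. Both matches are found on the RNA strand in 24.7% of 1507 annotated snoRNA transcripts. The sequences are from GENCODE M21 (GRCm38), written as DNA, 5′ to 3′. Snord110 lies in Nop56 (chr2:130275506-130275573, forward strand), and Snord11 (chr1:59704790-59704873) and Snord70 (chr1:59691934-59692020) lie in Nop58.
Snord110: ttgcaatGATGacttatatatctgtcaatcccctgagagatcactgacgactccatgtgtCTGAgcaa
Snord11: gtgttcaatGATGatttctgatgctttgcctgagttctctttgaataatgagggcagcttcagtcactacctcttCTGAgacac
Snord70: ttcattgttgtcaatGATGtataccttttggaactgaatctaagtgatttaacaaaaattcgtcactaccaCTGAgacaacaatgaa
All 3 have both boxes. Their own counts ran from 0 to 4 for Snord110, 0 to 2 for Snord11 and 0 to 1 for Snord70 per library, which is too few to compare, so the values describe the host messages and not the snoRNAs.

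None of the 4 box H/ACA snoRNP genes was called, 2 being higher and 0 lower at an unadjusted p under 0.05 in the paired edgeR fit. These particles convert uridine to pseudouridine, and the same proteins are part of telomerase. Dkc1, the gene of the synthase dyskerin, came nearest: it was at 27.3, 25.1 and 23.0 CPM in EV control against 32.9, 27.8 and 28.5 CPM in p27 OE. Its groups did not overlap, and its log2 fold change was 0.24 ± 0.07 (adjusted p 0.0576, and 0.0445 without number 2). The partner genes Nhp2, Gar1 and Nop10 differed by 0.17 ± 0.07, 0.07 ± 0.09 and 0.01 ± 0.07. Nop10, which had the highest level per length of the 4 (25.0 CPM per kb of exon), was at 25.6, 27.8 and 29.2 CPM in EV control against 23.9, 28.1 and 31.5 CPM in p27 OE, so its groups overlapped, and without number 1 its log2 fold change was 0.06.

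Of the 5 genes of the polymerase I machinery, Polr1a was called. Polr1a (chromosome 6, 71909053 to 71984935, forward strand) encodes the largest, catalytic subunit. It was at 33.3, 35.3 and 36.5 CPM in EV control against 47.8, 41.4 and 41.6 CPM in p27 OE, with no overlap. Its mean went from 35.0 ± 1.61 to 43.6 ± 3.60 CPM, a log2 fold change of 0.32 ± 0.07 (adjusted p 0.0228). p27 OE 1 was the highest library, and without number 1 the log2 fold change was 0.21 with an adjusted p of 0.0660. Polr1b, the gene of the other large subunit, differed by 0.11 ± 0.08 (adjusted p 0.482).

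Polr1c encodes a subunit that polymerases I and III share, and its log2 fold change was below 0. It was at 40.9, 44.5 and 44.7 CPM in EV control against 39.1, 37.0 and 38.0 CPM in p27 OE. Each p27 OE library was thus below each EV control library, but the difference was not called (-0.19 ± 0.07, adjusted p 0.104). Without number 1 it was -0.25 with an adjusted p of 0.0276. The initiation factor gene Rrn3, whose product makes polymerase I ready to start, and Ubtf, whose product binds the ribosomal DNA, differed by 0.06 ± 0.06 and -0.02 ± 0.05 (adjusted p 0.589 and 0.835). Ubtf was at 136, 109 and 106 CPM in EV control against 137, 101 and 108 CPM in p27 OE, where number 1 was high in both groups, and without number 1 its log2 fold change was -0.04.

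Of 6 genes of nucleolar chaperones and shuttling proteins, Ddx21, Gnl3 and Nolc1 rose. Ddx21 (chromosome 10, 62580251 to 62602281, reverse strand), which encodes an RNA helicase of the nucleolus, was at 83.4, 103 and 102 CPM in EV control against 106, 124 and 128 CPM in p27 OE. The groups did not overlap, and the log2 ratios of 0.34, 0.27 and 0.32 lay close together. The log2 fold change was 0.31 ± 0.05 with an adjusted p of 0.00422, and Ddx21 kept its call without any 1 number (adjusted p at most 0.0494). Of the 33, 3 genes were called with all numbers and without each of them in turn in the paired edgeR fit: Nop56, Ddx21 and Heatr1.

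Nolc1 (chromosome 19, 46075863 to 46085530, forward strand), which encodes a chaperone of snoRNPs, was at 55.6, 63.7 and 57.5 CPM in EV control against 66.3, 69.3 and 72.0 CPM in p27 OE. The groups did not overlap (0.23 ± 0.06, adjusted p 0.0355, and 0.330 without number 3). Gnl3 (chromosome 14, 31012433 to 31019152, reverse strand), the gene of the GTPase nucleostemin, was at 54.9, 63.6 and 61.1 CPM in EV control against 59.7, 77.3 and 78.4 CPM in p27 OE. Here p27 OE 1 lay below 2 EV control libraries, and the call rests on the pairing (0.25 ± 0.06, adjusted p 0.0268, and 0.291 without number 3).

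Npm1 and Ncl, which encode nucleophosmin and nucleolin, had the highest levels per length of the 33, 275 and 48.7 CPM per kb of exon. Npm1 was at 832, 728 and 734 CPM in EV control against 747, 697 and 651 CPM in p27 OE. It was lower in p27 OE in each number, but the groups overlapped and it was not called (-0.13 ± 0.06, adjusted p 0.177). Npm1 has processed copies in the genome, and the labels do not say how reads that match several places were counted. Ncl was at 452, 504 and 472 CPM in EV control against 497, 538 and 513 CPM in p27 OE (0.12 ± 0.05, adjusted p 0.206), and Mybbp1a differed by 0.13 ± 0.05 (adjusted p 0.169).

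**Figure D2:**
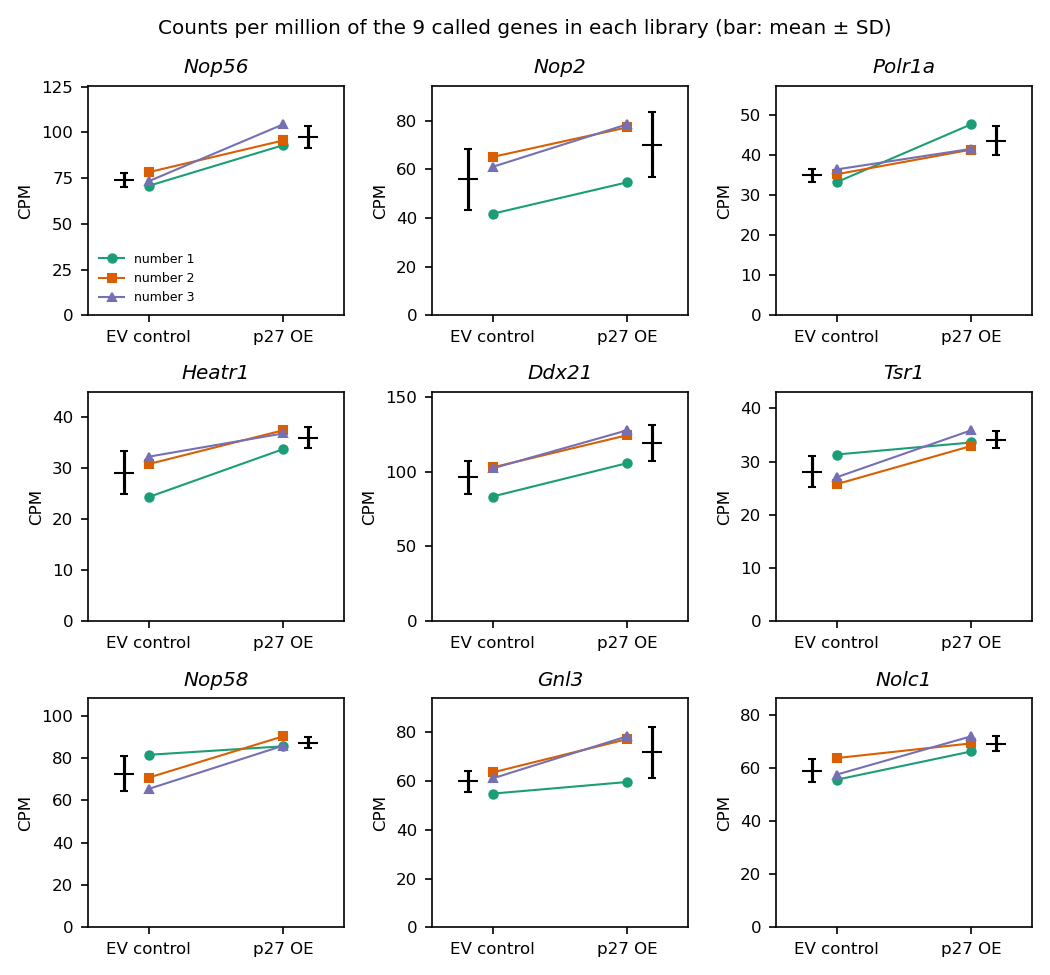
CPM (vertical axis, from 0) of the 9 genes that rose, in EV control and p27 OE. Lines join libraries of one number, and black bars are the group mean ± SD. Each line slopes up, and number 1 is the lowest library of both groups for Nop56, Nop2, Heatr1, Ddx21, Nolc1 and Gnl3.

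Of 8 genes of small subunit factors, Heatr1 and Tsr1 rose, and each of the 8 had a log2 fold change above 0, from 0.07 in Bysl to 0.31 in Heatr1. Heatr1 (chromosome 13, 12395027 to 12440289, forward strand) encodes a protein of the early processome that is also needed for transcription by polymerase I. It was at 24.3, 30.7 and 32.2 CPM in EV control against 33.7, 37.4 and 36.7 CPM in p27 OE, without overlap. Its log2 fold change was 0.31 ± 0.07 (adjusted p 0.0215, and at most 0.0494 without any 1 number). Tsr1 (chromosome 11, 74898071 to 74909342, forward strand), which encodes a factor that sits on the late small subunit precursor, was at 31.3, 25.8 and 27.1 CPM in EV control against 33.6, 32.95 and 35.9 CPM in p27 OE. Its groups did not overlap either (0.29 ± 0.08, adjusted p 0.0388, and 0.0796 and 0.309 without numbers 2 and 3).

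The other 6 small subunit genes were not called. Nop14, with the highest level per length among the 8 (18.3 CPM per kb of exon), was at 39.2, 48.6 and 50.4 CPM in EV control against 44.2, 60.5 and 56.4 CPM in p27 OE, with an adjusted p of 0.0508 (0.22 ± 0.06), and 0.0273 without number 1. Rrp12, a gene of subunit export, differed by 0.28 ± 0.09 (adjusted p 0.0666, and 0.0119 without number 2). Utp20 differed by 0.20 ± 0.09 (adjusted p 0.198): p27 OE 1 was at 55.6 CPM and the other 5 libraries at 39.9 to 44.5 CPM, so p27 OE 1 stood alone, and without number 1 the log2 fold change was 0.05. Wdr43 and Rrp9, which encode processome proteins, and Bysl differed by 0.16 ± 0.06, 0.15 ± 0.09 and 0.07 ± 0.07 (adjusted p 0.134, 0.315 and 0.603). Without number 1, Wdr43 was called (0.21, adjusted p 0.0401), while Rrp9 was at 0.05 and Bysl at 0.03 (adjusted p 0.773 and 0.860).

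Of 7 genes of large subunit factors, Nop2 rose. Nop2 (chromosome 6, 125131909 to 125144753, forward strand), the gene of an RNA methyltransferase that acts on the large subunit RNA, was at 41.7, 65.1 and 61.0 CPM in EV control against 54.7, 77.2 and 78.5 CPM in p27 OE. Number 1 was low in both groups, so the groups overlapped while the log2 ratios of 0.39, 0.25 and 0.36 were alike. The log2 fold change was 0.33 ± 0.06 (adjusted p 0.00546, and 0.0597 without number 3). By group alone the same counts gave an unadjusted p of 0.161.

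Pes1, Bop1 and Wdr12 encode the 3 proteins of one complex of large subunit processing, and none was called. Pes1, with the highest level per length of these 7 genes (25.2 CPM per kb of exon), was at 72.5, 77.5 and 74.4 CPM in EV control against 70.1, 83.2 and 79.9 CPM in p27 OE (0.05 ± 0.06, adjusted p 0.643, and 0.10 without number 1). Bop1 differed by 0.16 ± 0.06 (adjusted p 0.128) and Wdr12 by 0.06 ± 0.09 (0.757, and -0.07 without number 1). The log2 fold changes of Nip7, Nop16 and Rrs1 lay between 0.03 and 0.11, with adjusted p of 0.388 to 0.833. Without number 1 they were 0.20 for Nip7 (adjusted p 0.0932), 0.0095 for Nop16 and 0.08 for Rrs1.

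Promoters were compared for CACGTG, the E-box that Myc with its partner Max binds. The motif reads the same on both strands. RefSeq (GRCm38.p6) gave windows of 300 bases, from 250 before to 50 after a start, for 28 of the 33 genes. Of these 28 genes 7 held the motif (25.0%), against 8.09% of all genes with a window and 11.6% of the tested ones. Among the 9 genes that rose 2 held it (22.2%), Nop2 and Tsr1, and among the other 19 genes 5 did (26.3%): Mybbp1a, Pes1, Rrn3, Utp20 and Wdr43. Some of the other genes have several windows. Counted by window, 2 of 9 (22.2%) and 5 of 26 (19.2%) held the motif, against 9.73% of the windows of tested genes. The difference between these shares was not tested. The bases before the start are shown for the 2 genes with the motif there, one that rose and one that was not called, with CACGTG in capitals. That of Nop2 is chr6:125131633-125131882 and that of Rrn3 is chr16:13780449-13780698, both on the forward strand.
Nop2: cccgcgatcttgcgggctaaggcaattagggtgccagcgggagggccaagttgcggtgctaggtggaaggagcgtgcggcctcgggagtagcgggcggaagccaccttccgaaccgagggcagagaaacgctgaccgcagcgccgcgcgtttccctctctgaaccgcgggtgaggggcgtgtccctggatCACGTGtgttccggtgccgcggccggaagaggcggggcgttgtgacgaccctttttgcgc
Rrn3: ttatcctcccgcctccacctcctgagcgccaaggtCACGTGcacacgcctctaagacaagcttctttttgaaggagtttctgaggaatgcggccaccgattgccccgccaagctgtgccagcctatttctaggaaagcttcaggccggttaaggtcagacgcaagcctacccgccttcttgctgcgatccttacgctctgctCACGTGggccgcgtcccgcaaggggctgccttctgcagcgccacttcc
Counted from the start, the motif begins at -60 in Nop2 and at -215 and -48 in Rrn3. A match describes the letters only and shows no binding.

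Myc itself was at 30.0, 55.6 and 53.8 CPM in EV control against 42.1, 89.1 and 77.0 CPM in p27 OE. It rose by 0.56 ± 0.06 (adjusted p 0.000220, and at most 0.000537 without any 1 number). Number 1 was low in both groups, so the groups overlapped, and the log2 ratios were 0.49, 0.68 and 0.52 in numbers 1, 2 and 3. By group alone its adjusted p was 0.760. Of the 8 genes of its network that were listed, Myc alone was called. Max, which encodes its partner, differed by 0.04 ± 0.06.

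Beyond the 33 genes, 122 other genes of ribosome production were listed by role, of which 121 were in the table and tested. Of these, 6 rose and 2 fell, and the median log2 fold change was 0.05. Without numbers 1, 2 and 3, 12, 4 and 1 were called higher and 4, 2 and 0 lower, beside the changed shares over all tested genes given above. The 6 are 4.96% of the 121. Of all tested genes, 3.80% rose and 3.63% fell. The 8 were large subunit factors, among 45 listed. None was called of 37 small subunit genes, 11 polymerase I genes, 8 snoRNP genes, 12 exosome genes or 8 snoRNA host genes. At an unadjusted p under 0.05 the paired edgeR fit had 6 higher and 3 lower, 1 and 2, 0 and 0, 1 and 0, and 2 and 2 in these groups. Of all tested genes, 11.9% were higher and 12.0% lower at that threshold. The share of genes called differs between the 33 and the 121, but the lists were chosen with earlier results known and the difference was not tested.

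**Figure D3:**
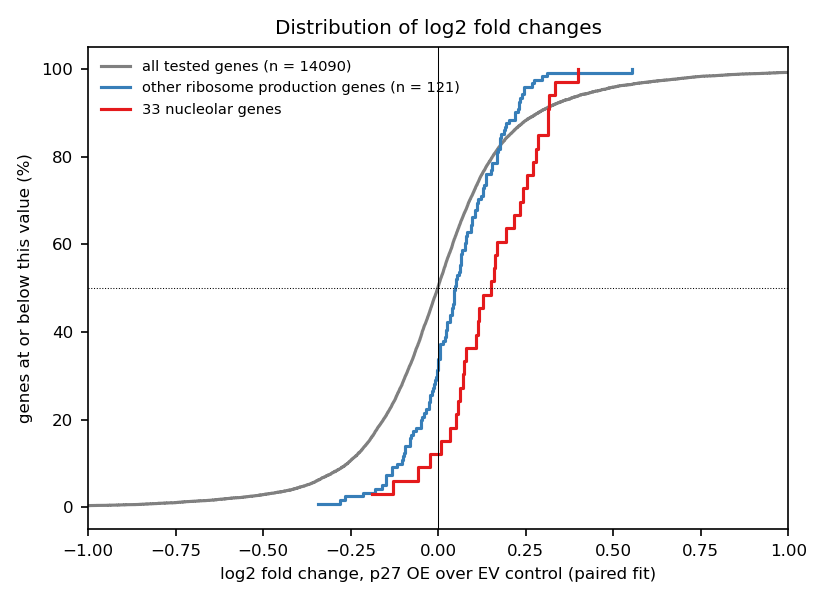
Share of genes (vertical axis, percent) at or below each log2 fold change of the paired fit (horizontal axis) for all 14090 tested genes, 121 other ribosome production genes and the 33 nucleolar genes. The medians are -0.001, 0.05 and 0.15, and some genes lie outside the plotted range.

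The largest change in that wider list was in Mdn1, which encodes a giant ATPase that remodels the large subunit precursor. It was at 15.4, 14.9 and 17.1 CPM in EV control against 29.0, 19.2 and 22.0 CPM in p27 OE, highest in p27 OE 1, with no overlap (0.55 ± 0.11, adjusted p 0.0132, and a log2 fold change of 0.36 without number 1). With the length and GC correction the log2 fold change of Mdn1 was 0.40. Gltscr2, an older symbol of Nop53, fell: it was at 113, 131 and 142 CPM in EV control against 95.7, 107 and 101 CPM in p27 OE (-0.34 ± 0.06, adjusted p 0.00509, and 0.0900 without number 3). Nsa2 fell from 195, 220 and 221 CPM to 156, 191 and 184 CPM (-0.27 ± 0.05, adjusted p 0.0105, and 0.0966 without number 3). Gltscr2 and Nsa2 encode large subunit assembly factors too, and their groups did not overlap. The other 5, named after their values were seen, were Ppan (0.30), Noc3l (0.27), Las1l (0.25), Ftsj3 (0.24) and Nvl (0.22). None of these 5 was called without number 3, and Ppan was not called without number 1 (adjusted p 0.0789), nor Las1l and Nvl without number 2 (0.0579 and 0.0629). Noc3l was also not called with paired DESeq2 (0.0815), limma-voom (0.0504) or upper-quartile scaling (0.0515), and Nvl not with paired DESeq2 (0.0669), upper-quartile scaling (0.0520) or the length and GC correction, which gave 0.14 (0.160).

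The table has a row for the sequence of the precursor RNA, Rn45s. It was at 3620, 5877 and 3269 CPM in EV control against 2239, 3300 and 2967 CPM in p27 OE. It was lower in p27 OE in each number (log2 ratios -0.69, -0.83 and -0.14), although p27 OE 2 lay just above EV control 3. The difference of -0.56 ± 0.14 was not called (adjusted p 0.0895), and EV control 2 was the highest library. Paired limma-voom gave an adjusted p of 0.0197, and the paired edgeR fit gave 8.52e-05 without number 3 and 0.452 without number 1. The row stands for a repeated sequence, and its level also depends on how much ribosomal RNA the library preparation left, a part that was not tested. Mature ribosomal RNA is cut from the precursor, so the row does not tell precursor from mature RNA.

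**Figure D4:**
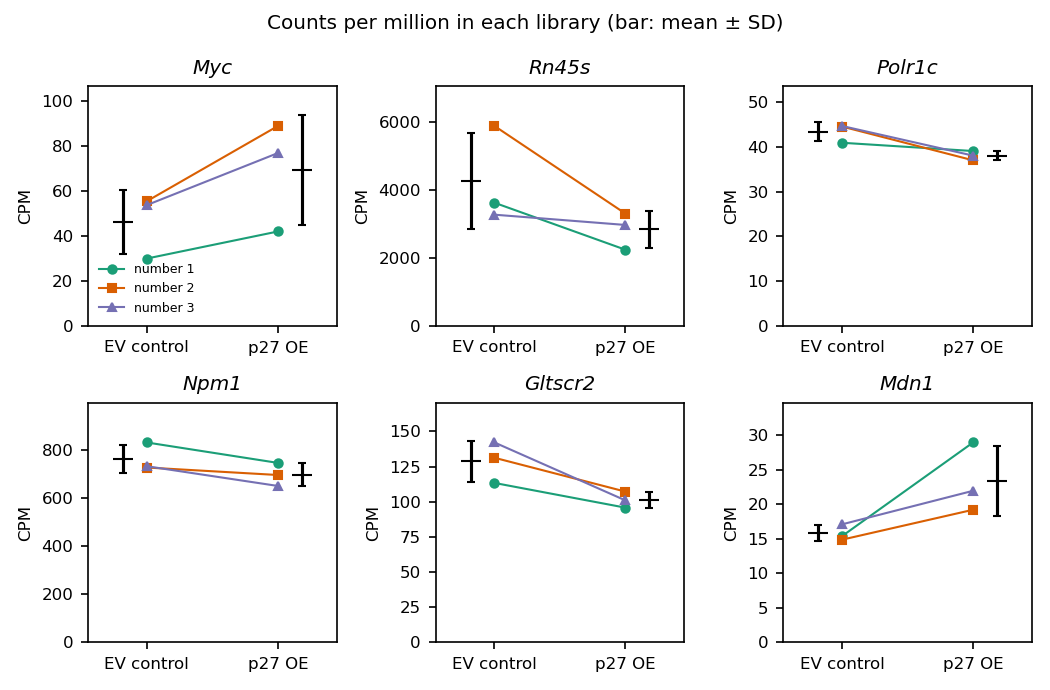
CPM (vertical axis, from 0) of Myc, Rn45s, Polr1c, Npm1, Gltscr2 and Mdn1 in EV control and p27 OE. Lines join libraries of one number, and black bars are the group mean ± SD. Myc and Mdn1 rise in each number, and the other 4 are lower in p27 OE in each number, of which Gltscr2 was called.

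Depth was not limiting for these genes: raw counts per library ran from 538 for Gar1 to 44947 for Npm1. The 33 genes had a median transcript length of 3389 bases and a GC content of 50.3%, against 3396 bases and 49.9% for the tested genes with a value. Among the genes that rose, Polr1a, Nop58 and Heatr1 have long transcripts, of 9216, 9507 and 6780 bases. With the length and GC correction their paired log2 fold changes were smaller, at 0.24, 0.18 and 0.26. Those of Nop56, Ddx21, Nolc1, Gnl3, Tsr1 and Nop2 were 0.40, 0.30, 0.24, 0.26, 0.29 and 0.36. The library kit does not mark strand, so reads in exons that overlap a gene on the other strand cannot be assigned by strand. Of the genes that rose, Nop56 overlaps Idh3b, Gnl3 overlaps Pbrm1, Tsr1 overlaps Srr and Heatr1 overlaps Lgals8, and Polr1a overlaps an antisense RNA that is not among the tested genes. Idh3b, Pbrm1, Srr and Lgals8 differed by -0.16, 0.16, 0.004 and -0.12, and none was called. Of the genes that were not called, Dkc1, Nhp2, Mybbp1a, Rrp9, Bysl, Wdr12 and Bop1 overlap a tested gene on the other strand. Among these partners only Parp3, which overlaps Rrp9, was called, and it rose by 0.26 ± 0.05 (adjusted p 0.0105). Nop14, Wdr43 and Pes1 overlap genes on the other strand that are not among the tested ones.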

How the data were processed

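RNA was extracted on columns and made into libraries with the TruSeq RNA kit v2, per the labels' protocols. The authors deposited unnormalized read counts, 1 whole number for each gene symbol and library. TopHat2 2.0.14, Bowtie2 2.2.6, featureCounts 1.4.6 and the build mm10 are listed per the submitters' processing notes. Annotation, strand setting and the handling of multi-mapping reads were not stated there. No column was left unmapped (0).

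Genes were kept with filterByExpr (minimum count 10, minimum total 15), scaled by TMM and tested over the whole table with edgeR 4.0.16 in R 4.3.3 (robust quasi-likelihood F test, two-sided, Benjamini-Hochberg adjustment over 14090 genes, threshold 0.05). The SE comes from the F statistic. Ratios within a number use log2 CPM with a prior count of 2. The main fit has the group alone, and the paired fit adds the number in the titles as a block. Deviations from the group means correlated at 0.77, 0.42 and 0.54 between libraries numbered 1, 2 and 3. Each was above 0.1, so the numbers were taken as pairs. EV control 2 with p27 OE 3 (0.39) and EV control 3 with p27 OE 2 (0.41) passed that cut too. Cross pairs with a library numbered 1 were all negative. The cut thus sets number 1 apart but cannot tell whether numbers 2 and 3 are paired as labelled. Over the genes described here alone, EV control 2 correlated at 0.62 with p27 OE 2 and 0.53 with p27 OE 3. EV control 3 correlated at 0.43 and 0.51 with them. The calls of the paired fit rest on this pairing. Replicates differed by more than sampling noise (mean chi-square per gene of at least 9.74, near 1 for a repeated library).

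The alternatives tried were RLE scaling, upper-quartile scaling, no filter, at least 1 CPM in 3 libraries, DESeq2 1.42.0, limma-voom (limma 3.58.1) and leaving out libraries. Correcting for GC content and transcript length (loess, span 0.3, values for 13455 genes) was an alternative added after the data were seen. Coordinates, exon lengths and snoRNAs are from GENCODE M21 (GRCm38, the assembly mm10 names), and promoters from RefSeq (GRCm38.p6). The fits were also run on counts simulated with the replicate block, which cannot test whether the numbers pair the libraries. The members and lists were chosen with earlier results of these data known. Named with values in each library are the called genes, the gene of each role with the highest level per length, genes lower at an unadjusted p under 0.05, Myc, Rn45s and the 3 called genes per wider group with the smallest p; others given by library were chosen after their values were seen. With 3 against 3 libraries an exact permutation test cannot go below 0.1, so none was used.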

Additional observations from a re-analysis of the deposited data

How the results depend on the processing

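The replicate block decided the calls. Without it edgeR called 0 of the 33 genes and DESeq2 called 1 higher; with it edgeR called 9 higher. Of the wider list 6 were higher and 2 lower with the block, and 0 and 0 without it. Over all tested genes, 535 were higher and 512 lower with the block, and 0 and 0 without it; DESeq2 without the block called 51 and 31, and no filter without the block called 1 higher. With the block, 7 to 12 of the 33 were called higher and 0 lower under the other scalings, filters, tools and the length and GC correction. The 9 calls were kept with RLE scaling, upper-quartile scaling, no filter and the CPM filter. DESeq2 lost Nolc1 (adjusted p 0.0527) and Tsr1 (0.0607), limma-voom lost Nop58 (0.0520) and Tsr1 (0.0647), and the length and GC correction lost Nop58 (0.158). Over all tested genes with the block, DESeq2 called 473 higher and 334 lower, and upper-quartile scaling moved the split to 483 higher and 736 lower. Without both libraries of 1 number, the paired calls ranged from 4 (without number 3) to 10 higher and 0 to 1 lower among the 33, from 1 to 12 higher and 0 to 4 lower in the wider list, and from 224 to 893 higher and 106 to 848 lower over all tested genes. Leaving out 1 library without the block gave 0 calls among the 33, and 0 to 1 higher over all tested genes. The median log2 fold change of the 33 ranged from 0.110 to 0.154 with the block, leaving out a number, and from 0.0859 to 0.190 without it, leaving out a library. Signs changed only in genes that were not called. With upper-quartile scaling Nop10 was at -0.00522 without and -0.0112 with the block, and with the length and GC correction Wdr12 was at -0.0340 and -0.0355. Leaving out a library without the block, values ranged from -0.0551 to 0.159 for Rrn3, -0.164 to 0.103 for Ubtf, -0.0840 to 0.114 for Nop10, -0.0178 to 0.125 for Bysl, -0.0387 to 0.124 for Wdr12 and -0.0770 to 0.196 for Rrs1. Leaving out a number with the block, they ranged from -0.0485 to 0.0192 for Ubtf, -0.0433 to 0.0641 for Nop10, -0.0677 to 0.127 for Wdr12 and -0.0579 to 0.0837 for Rrs1. The cause of these changes was not tested.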
